A study of Mus musculus with 4 samples.

Results

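Solute carriers are the large group of membrane proteins that move nutrients, ions, vitamins and drugs across membranes, and their genes are named Slc with a family number, or Slco for the organic anion transporting polypeptides. In the table of captured methylated DNA analysed here, 221 of 10000 regions carried a gene label that began with Slc and a digit or with Slco. These labels named 128 genes, out of 5349 gene labels (5377 Ensembl gene identifiers) in the whole table. Each of the 128 labels matched a solute carrier in RefSeq, 126 by symbol and 2 by an older name, Slc24a6 (now Slc8b1) and Slc9a10 (now Slc9c1). None of the labels was a scaffold, antisense or pseudogene label, so all 221 regions were kept.

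Genomic DNA came from 4 populations of CD4+ T cells of female Balb/c mice, with 1 library each, isolated from spleen and lymph nodes. Naive T cells were sorted as CD3+CD4+ with high CD45RB, T helper 1 (Th1) cells as CD45RB low, IFNg+ and IL17A-, and T helper 17 (Th17) cells as CD45RB low, IFNg- and IL17A+. These 3 populations were treated for 3 h with 10 ng/ml of PMA, a phorbol ester, and 500 ng/ml of the calcium ionophore ionomycin before staining and sorting, whereas regulatory T cells (Treg) were sorted first, as CD3+CD4+CD25++, and then stimulated for 3 h. The labels give no age, no number of animals and no statement on whether animals were pooled, and the order of sorting and stimulation cannot be told apart from the Treg population itself.

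Some solute carriers work at the plasma membrane and take up glucose, amino acids, lactate, metals or bicarbonate, while others sit in mitochondria, lysosomes or secretory vesicles. T cells raise uptake of glucose and amino acids when they are activated, and several carriers are known regulators of that step. Methyl-CpG capture retains DNA that carries methylated CG dinucleotides, so the reads at a place depend on both the methylation and the number of CG dinucleotides there. Methylation is usually low at active CG-rich promoters and common inside transcribed genes, so a region within a gene is no direct readout of the gene's expression.

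A region's value in the table is its number of reads multiplied by 1 constant per library, and the constants, each the worth of 1 read, were 0.996 (naive), 1.68 (Th1) and 0.352 (Treg). Over all 10000 regions the table held 34277 naive, 19548 Th1 and 74571 Treg reads. The Th17 library was listed at 0 in every region, the solute carriers included, so it enters no comparison below. The table carries the name of a comparison of Th17 with other T cell subsets, and none of its 10000 regions had a Th17 value above 0. It may therefore be a selected set of regions and no general map of captured DNA. A gene or family missing from it may still hold methylated DNA. Reads below are given in the order naive, Th1 and Treg, intervals are exact 95% Poisson intervals that cover counting error only, and with 1 library per population there is no test between populations. Positions are in mouse build mm9. As for the labels of the populations, the table gave no region for Cd3e, Cd4, Ptprc (which encodes CD45), Ifng, Foxp3 or Il2ra (which encodes CD25) and 2 regions for Il17a, and captured DNA is in any case no check of a sort.

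The solute carrier regions lay mostly inside introns. Of the 221, the table placed 179 (81.0%) in introns, 34 (15.4%) in exons and 8 (3.62%) in promoters. The shares over the whole table were 78.6%, 16.6% and 4.77%, so the carriers were placed much like other genes. The ATP-binding cassette transporters, the other large group of membrane transporters, had 38 regions in 27 genes, with 57.9% in introns, 42.1% in exons and 0 in promoters. The difference between the transporter groups was not tested. The carriers' regions were 148 to 550 bp long with a median of 253 bp, against 249 bp for the table.

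**Figure D1:**
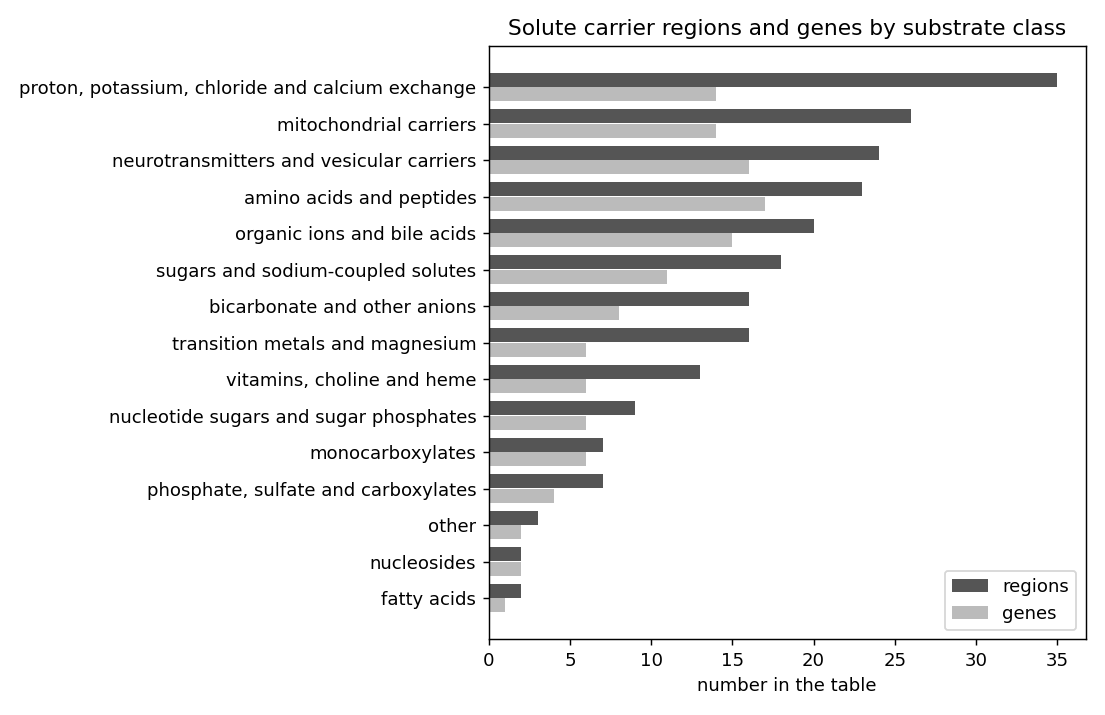
Number of solute carrier regions (dark bars) and of solute carrier genes (light bars) in each substrate class (horizontal axis, number in the table). The class of proton, potassium, chloride and calcium exchangers was the largest with 35 regions. Location is not drawn, and promoter regions occurred in 5 of the classes.

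The 8 promoter regions are the places where captured DNA lay closest to a carrier's start, and the promoter sequences of 4 of these genes are shown for their content of CG, the dinucleotide that carries the captured mark. The regions of Slc11a1, Slc22a14 and Slco1a6 were annotated to the promoter and also to exon 1, at distances of -51, 105 and 116 bp in the table, and Slc27a2 is the matched gene with the most CG in its window. Each sequence is the RefSeq window of build GRCm38.p6 from 250 bases before to 50 bases after the annotated start, read 5′ to 3′ on the gene's strand, with every CG in capitals. The windows were chr1:74374953-74375252 (plus strand) for Slc11a1, chr9:119190346-119190645 (minus strand) for Slc22a14, chr6:142186100-142186399 (minus strand) for Slco1a6 and chr2:126552774-126553073 (plus strand) for Slc27a2. The mm9 regions were not converted to that build, so the windows show the genes' starts and not the captured fragments.
Slc11a1: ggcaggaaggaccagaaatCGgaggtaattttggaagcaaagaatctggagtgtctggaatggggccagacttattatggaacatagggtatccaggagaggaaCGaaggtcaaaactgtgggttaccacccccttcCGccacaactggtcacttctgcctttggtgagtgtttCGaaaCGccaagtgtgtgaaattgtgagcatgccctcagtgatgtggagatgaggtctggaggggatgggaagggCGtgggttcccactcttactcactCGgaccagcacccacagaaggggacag
Slc22a14: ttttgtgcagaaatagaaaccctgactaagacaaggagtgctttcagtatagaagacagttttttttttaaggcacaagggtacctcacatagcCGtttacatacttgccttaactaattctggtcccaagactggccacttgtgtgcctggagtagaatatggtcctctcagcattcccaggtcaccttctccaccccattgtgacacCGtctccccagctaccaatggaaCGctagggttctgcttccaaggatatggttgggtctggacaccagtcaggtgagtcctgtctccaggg
Slco1a6: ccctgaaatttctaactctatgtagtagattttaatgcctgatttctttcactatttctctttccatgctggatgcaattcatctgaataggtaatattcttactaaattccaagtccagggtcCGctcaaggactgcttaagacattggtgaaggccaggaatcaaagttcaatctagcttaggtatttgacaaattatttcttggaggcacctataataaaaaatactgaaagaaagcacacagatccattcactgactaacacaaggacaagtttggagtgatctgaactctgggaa
Slc27a2: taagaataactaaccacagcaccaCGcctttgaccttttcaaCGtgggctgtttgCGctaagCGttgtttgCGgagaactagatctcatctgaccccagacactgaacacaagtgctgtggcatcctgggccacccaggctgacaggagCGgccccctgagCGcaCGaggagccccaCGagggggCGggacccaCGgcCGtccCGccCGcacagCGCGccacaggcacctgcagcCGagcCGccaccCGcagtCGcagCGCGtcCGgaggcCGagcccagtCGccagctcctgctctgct
Of the 32851 RefSeq promoter windows of this length, 94.6% held at least 1 CG, and the median was 7. CG reads the same on both strands, so both are covered by 1 count. Slc11a1 held 7, at the median, and 52.1% of windows held as many or more. Slc22a14 held 3, a number that 31.4% of windows did not exceed, and Slco1a6 held 1, which 14.1% of windows did not exceed. Slc27a2 held 25, and 18.4% of windows held as many or more. The other matched windows, of Slc44a4 and Slco4c1, held 13 and 21, and 37.9% and 24.8% of windows held as many or more. Thus the regions placed over exon 1 belonged to genes whose windows had a median or lower number of CG. The windows of Slc27a2, Slco4c1 and Slc44a4 were above the median, and the regions of these genes lay -866, -1886 and -1834 bp from the start. With 6 matched genes, a link between CG number and distance was not tested. Slc30a8 also had a promoter region.

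All 8 promoter regions had reads in naive, Th1 and Treg cells, 34, 21 and 57 in sum. Their mean values were 4.23 (2.93 to 5.92) in naive, 4.41 (2.73 to 6.74) in Th1 and 2.51 (1.90 to 3.25) in Treg cells. Slc11a1, the NRAMP1 metal carrier of phagosomes, had its region at chr1:74421528-74421924 with 4, 3 and 15 reads, or values of 3.98 (1.09 to 10.2), 5.04 (1.04 to 14.7) and 5.29 (2.96 to 8.72), which overlapped in all 3 libraries. Slc27a2, which takes up long-chain fatty acids and activates them with coenzyme A, held 4, 6 and 4 reads at chr2:126377131-126377424. That made its Treg value 0.140 of the Th1 value (0.0290 to 0.589). Slc44a4 of the choline transporter-like family, which carries thiamine pyrophosphate, held 5, 5 and 6 reads at chr17:35049424-35049731.

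Slc30a8 encodes ZnT8, which loads zinc into insulin granules, and its region at chr15:52125597-52125822, -1399 bp away, held 7, 1 and 4 reads. The Treg value there was 0.202 of the naive value (0.0434 to 0.795), an interval that holds the ratio over all regions, 0.770. Among the transporters of organic ions, Slco4c1 held 4, 1 and 10 reads at chr1:98770359-98770908, Slc22a14 held 2, 2 and 9 at chr9:119099265-119099575 and Slco1a6 held 3, 1 and 7 at chr6:142156797-142157056. Slco1a6 belongs to a family with close copies in the mouse genome, and the labels do not say how reads with several matches were treated. The Treg library was below the naive one in value at Slc27a2, Slc44a4, Slc30a8, Slco4c1 and Slco1a6 and above it at Slc11a1 and Slc22a14.

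**Figure D2:**
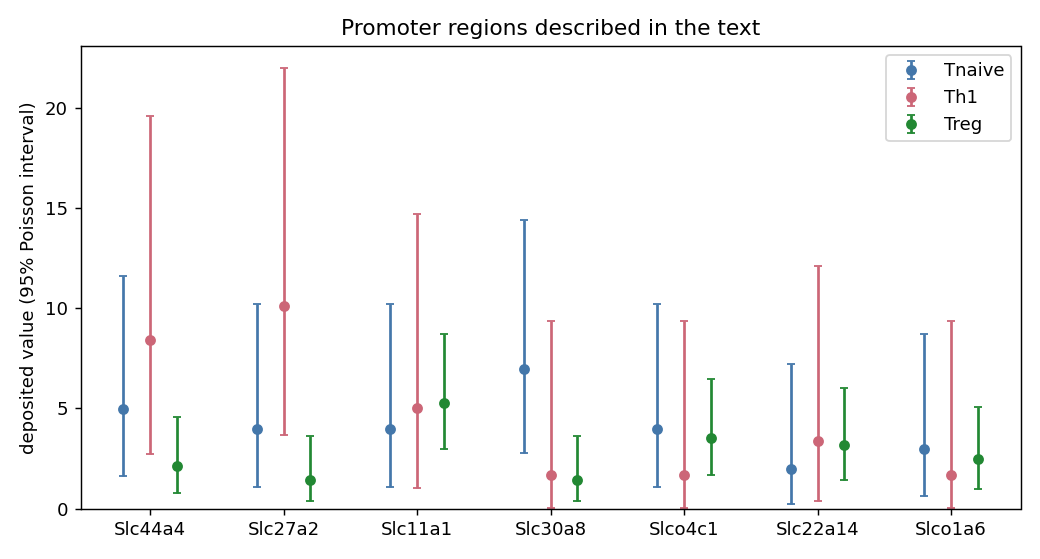
Deposited value (vertical axis, scaled reads) of 7 of the promoter regions in naive, Th1 and Treg cells, with exact 95% Poisson intervals as bars and 1 library per population. The intervals are wide, as for Slc11a1 with 1.09 to 10.2 in naive and 2.96 to 8.72 in Treg cells.

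Across the 221 regions the reads were few, and the mean value was lower in Treg than in naive and Th1 cells. Naive cells had 750 reads in these regions (0 to 7 a region, median 3.00), Th1 cells 452 (0 to 6, median 2.00) and Treg cells 1670 (0 to 18, median 7). After the deposited scaling the mean values were 3.38 (3.14 to 3.63) in naive, 3.44 (3.13 to 3.77) in Th1 and 2.66 (2.54 to 2.79) in Treg cells, against 3.41, 3.29 and 2.63 over the whole table. The Treg values of the solute carriers were thus below those of naive and Th1 cells, and so were the Treg values of the whole table. The summed carrier values gave a Treg to naive ratio of 0.788 (0.722 to 0.860; all regions 0.770), a Treg to Th1 ratio of 0.775 (0.698 to 0.861; all regions 0.800) and a Th1 to naive ratio of 1.02 (0.903 to 1.14; all regions 0.962). The labels do not say how the scaling constants were set. The carriers' median log2 ratio was 0.02 for Th1 over naive, -0.29 for Treg over naive and -0.23 for Treg over Th1, where the table's medians were -0.19, -0.29 and -0.22. With the libraries scaled to equal table totals, the medians became 0.07, 0.04 and 0.00 for the carriers and -0.15, 0.04 and 0.06 for the table.

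A read was found in all 3 libraries at 200 of the carrier regions (90.5%; 85.9% of the table). No Th1 read was found at 20 regions (9.05%; 12.3% of the table), no naive read at 1 and no Treg read at 1. In the Th1 library, which had the fewest reads, 0 reads allow up to 3 reads as a 1-sided 95% limit, or a value of 5.04, which is above the mean Th1 value of the carriers. An unread Th1 region was therefore not distinguishable from an average one at this depth. The limits were 2.99 for naive and 1.06 for Treg cells.

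To count regions that differed in size, a log2 ratio of at least 1 between values, with 0.5 added to each, was used as a rule of size and not as a test. In Th1 over naive cells, 31 carrier regions (14%) were higher and 53 (24%) lower, against 19.4% and 29% of the table. In Treg over naive cells, 14 (6.33%) were higher and 49 (22.2%) lower, against 8.33% and 22.2%. In Treg over Th1 cells, 36 (16.3%) were higher and 53 (24%) lower, against 17.0% and 21.0%. The remaining 137, 158 and 132 regions lay within the rule. In Th1 over naive cells both shares were below those of the table, a difference that was not tested. In the Treg comparisons they lay near those of the table, so these counts were no result about the carriers.

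With equal table totals the Th1 over naive counts became 33 higher (14.9%; all regions 19.6%) and 35 lower (15.8%; all regions 21.3%). Those of Treg over naive became 34 higher (15.4%; all regions 15.2%) and 26 lower (11.8%; all regions 12.3%), and those of Treg over Th1 became 46 higher (20.8%; all regions 22.6%) and 39 lower (17.6%; all regions 15.2%). The balance of higher and lower regions thus turned with the scaling for both Treg comparisons. An exact binomial test of the reads, 2-sided with Benjamini-Hochberg adjustment over the 10000 regions, compares libraries and not conditions, and called 0 carrier regions in each pair. Over the table it called 0% for Th1 over naive, 0.0100% for Treg over naive and 0% for Treg over Th1. With at most 7 naive and 6 Th1 reads in a carrier region, the test could hardly call a region in Th1 over naive cells. The 0 calls there do not show that the libraries were equal. At an unadjusted p under 0.05 the carriers counted 2 (0.905%; all regions 1.53%), 19 (8.60%; all regions 8.40%) and 15 (6.79%; all regions 5.01%). The smallest adjusted p of the exact test among carriers was 1.00 for Slc17a8 in Th1 over naive, 0.223 for Slc25a21 in Treg over naive and 0.656 for Slc17a8 in Treg over Th1.

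**Figure D3:**
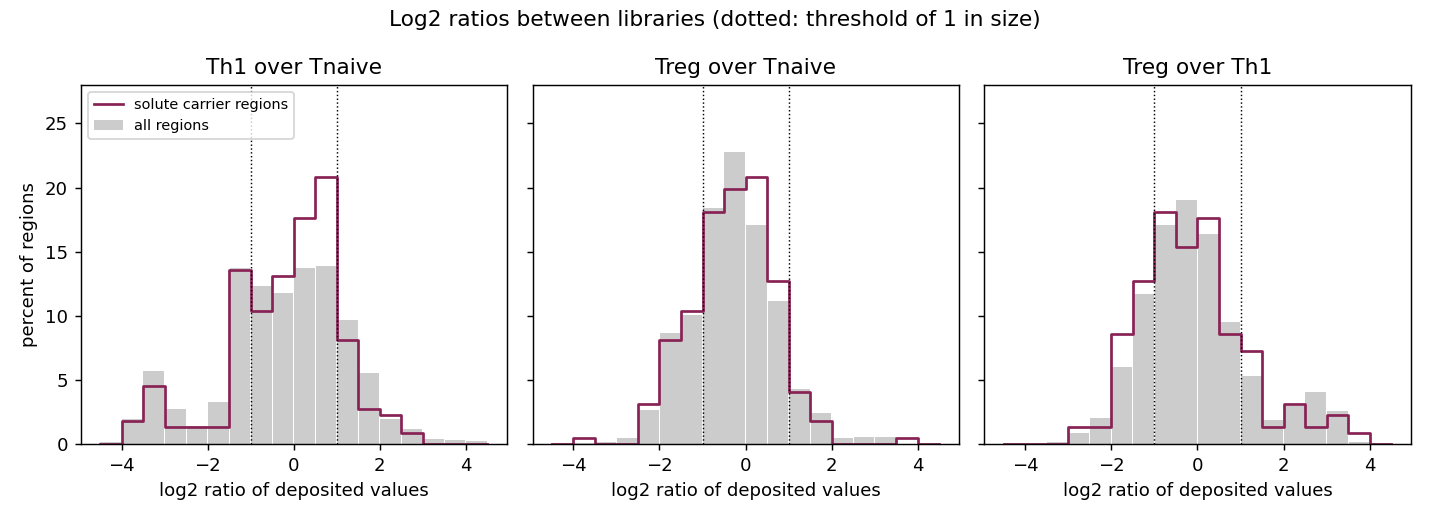
Share of regions (vertical axis, percent) by log2 ratio of values (horizontal axis) for the 3 pairs of libraries, for the 221 solute carrier regions and all 10000 regions. The distributions overlap widely, with medians of -0.29 for both in Treg over naive cells and of 0.02 against -0.19 in Th1 over naive cells.

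The regions with the highest mean value over the 3 libraries included amino acid, metal and organic cation carriers. Mean values ran from 1.13 to 6.86 with a median of 3.02 (all regions 3.06). Slc38a9, a lysosomal carrier that senses arginine for the growth regulator mTORC1, had the highest, with 7, 6 and 10 reads in an intron at chr13:113482472-113482734 and a mean value of 6.86. Slc41a2, a magnesium carrier, followed with 5, 5 and 15 reads at chr10:82722994-82723453 (mean value 6.22). Slc22a3, the organic cation transporter OCT3, held 5, 5 and 11 reads at chr17:12670346-12670631 (mean value 5.75), and Slc38a5, a carrier of glutamine and other neutral amino acids, held 4, 5 and 13 in exon 3 at chrX:7849518-7849926 (mean value 5.66).

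Slc6a6, the taurine transporter, held 4, 6 and 8 reads at chr6:91640317-91640774 (mean value 5.63), and Slc9a2, a sodium-proton exchanger, held 5, 6 and 4 at chr1:40774705-40775128 (mean value 5.49). After the promoters of Slc44a4 (mean value 5.17) and Slc27a2 (mean value 5.16) came an intron of Slc24a4, a potassium-dependent sodium-calcium exchanger, with 6, 3 and 12 reads (mean value 5.08). Exon 5 of Slc16a14, in the monocarboxylate family, closed this set with 7, 3 and 8 reads (mean value 4.95). All 10 were read in each library, with 4 or more naive reads at every one. They were picked by the mean over these same libraries, so this is no separate result. The lowest mean value, 1.13, was that of exon 7 of Slc1a6, a glutamate transporter, with 2, 0 and 4 reads.

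Carriers of amino acids and peptides had 23 regions in 17 genes, 20 of them in introns. Their mean values were 3.38 (2.67 to 4.22) in naive, 3.80 (2.84 to 4.98) in Th1 and 2.88 (2.48 to 3.32) in Treg cells. Slc15a4, a lysosomal carrier of histidine and peptides, had the most reads of the class, 44, over 3 introns with 5, 3 and 13, then 2, 2 and 9, then 4, 2 and 4 reads. Slc38a9 had a second intronic region, at chr13:113497260-113497588, with 1, 4 and 7 reads. Slc38a1, a glutamine carrier, held 3, 3 and 7 and 4, 4 and 5 reads in 2 introns.

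Slc43a3, which is placed in this class by its family number but carries purine nucleobases, had the region with the largest log2 ratio of Treg over naive cells among the carriers, 3.77. At chr2:84780047-84780302, in an intron, it held 0, 1 and 18 reads, and 18 was the highest Treg number of the 221 regions. The Treg value was 6.34 (3.76 to 10.0). The exact 95% interval of its Treg to naive ratio began at 1.56, and that of its Treg to Th1 ratio, 3.77 (0.596 to 157), included equality.

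Neurotransmitter and vesicular carriers, here of the families Slc6 and Slc17, had 24 regions in 16 genes, with 0 in promoters and 2 in exons. Mean values were 3.07 (2.41 to 3.86), 3.64 (2.72 to 4.78) and 2.42 (2.07 to 2.82), and the Treg to Th1 ratio was 0.665 (0.484 to 0.927), an interval that holds the table's 0.800. Slc6a6 had the most reads of the class, 38, in 3 introns with 4, 6 and 8, then 4, 1 and 3, then 3, 1 and 8. The first and second of these lie 10 bp apart, so they may be parts of 1 captured stretch. Slc17a8, which loads glutamate into vesicles, held 4, 2 and 11, then 1, 5 and 2, then 3, 2 and 4 reads in 3 introns. The middle one, at chr10:89061754-89062022, had a Treg value of 0.0839 of the Th1 value (0.00799 to 0.512).

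Slc6a11, a GABA transporter, held 2, 1 and 7, then 3, 1 and 4, then 4, 4 and 11 reads, with Treg the highest in number and close in value. Slc6a12, which carries betaine and GABA, held 1, 1 and 12 reads at chr6:121296020-121296299. Its Treg to naive ratio was 4.25 (0.628 to 182) and its Treg to Th1 ratio 2.52 (0.372 to 108). Both ratios rest on 1 read in the lower library, and both intervals include equality. The noradrenaline transporter Slc6a2 held 5, 3 and 2 reads in 1 intron at chr8:95487527-95487707. The Treg value there was 0.142 of the naive value (0.0135 to 0.864), an interval that holds the table's 0.770. The other Slc6a2 intron held 3, 2 and 9.

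The sugar and sodium-coupled solute families, Slc2, Slc5 and Slc45, had 18 regions in 11 genes, and none of the 18 was in a promoter. Mean values were 3.10 (2.34 to 4.02), 3.83 (2.75 to 5.19) and 3.11 (2.65 to 3.64), a Treg to naive ratio of 1.00 (0.736 to 1.39). Slc2a13, the proton-coupled inositol transporter, had 7 regions over 253 kb of chromosome 15, all in introns, and the most reads of the class, 92. Its naive reads ran from 2 to 5 a region, its Th1 reads from 1 to 4 and its Treg reads from 4 to 10. Its mean values were 3.56 (2.30 to 5.25), 4.08 (2.38 to 6.54) and 2.52 (1.87 to 3.32), with overlapping intervals. A pair of its regions lie 72 bp apart.

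Slc2a3 encodes GLUT3, a high-affinity glucose transporter of T cells and neurons. One of its 2 intronic regions, at chr6:122736999-122737327, held 1, 4 and 15 reads, a Treg to naive ratio of 5.31 (0.817 to 223) whose interval includes equality. The other held 3, 2 and 10. Exon 5 of Slc2a10, the GLUT10 transporter, held 1, 4 and 8 reads. At both the first Slc2a3 region and the Slc2a10 exon, the ratios to naive cells rest on 1 naive read.

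Proton, potassium, chloride and calcium exchangers formed the largest class, with 35 regions in 14 genes and 9 of the 35 in exons. Their mean values were 3.44 (2.86 to 4.11), 3.36 (2.62 to 4.25) and 2.72 (2.40 to 3.06), and 5 regions had no Th1 read. Slc9a9, an endosomal sodium-proton exchanger, had 7 regions over 494 kb of chromosome 9, the widest spread of the carriers, and 97 reads. Its regions held 2 to 5 naive, 0 to 4 Th1 and 5 to 12 Treg reads, with mean values of 3.56, 3.36 and 2.92 (2.22 to 3.78 for Treg). Exon 7 held 5, 3 and 7 of them.

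Slc8a1, the sodium-calcium exchanger NCX1, had 6 regions over 174 kb of chromosome 17 with 17, 12 and 48 reads in sum and mean values of 2.82, 3.36 and 2.82 (2.08 to 3.74 for Treg). Slc24a4 had 5 regions over 128 kb of chromosome 12, 3 in introns and 2 in exons, with 19, 5 and 47 reads. The first intron region, at chr12:103375322-103375542, held 6, 0 and 8 reads, a Treg to naive ratio of 0.472 (0.144 to 1.65). Exon 13, at chr12:103492644-103493055, held 1, 1 and 11, a ratio of 3.89 (0.566 to 168), and exon 16 held 4, 0 and 5, a ratio of 0.442 (0.0952 to 2.23). These intervals overlapped widely and included equality. Slc12a8, a relative of the cation-chloride cotransporters, held 2, 3 and 10, then 2, 2 and 11, then 3, 3 and 13 reads. Its mean values were 2.32 (0.934 to 4.79), 4.48 (1.94 to 8.83) and 3.99 (2.77 to 5.58), with overlapping intervals.

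Single regions of the exchangers also stood at the ends of the comparisons. Slc9a8, an exchanger of the Golgi and endosomes, held 4, 0 and 15 reads at chr2:167286072-167286463, and the interval of its Treg to Th1 ratio began at 0.752 and so included equality. Exon 14 of Slc9a10, a sperm exchanger, held 3, 0 and 11 reads at chr16:45573529-45573728. The mitochondrial sodium-calcium exchanger Slc24a6 held 5, 2 and 2 reads at chr5:120973578-120973788, and exon 12 of Slc9a3, the sodium-proton exchanger of gut and kidney, held 5, 3 and 4. At the Slc9a2 intron above, the Treg value was 0.140 of the Th1 value (0.0290 to 0.589).

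Carriers of bicarbonate and other anions had 16 regions in 8 genes, with mean values of 3.80 (2.90 to 4.88), 3.26 (2.21 to 4.62) and 2.56 (2.11 to 3.06). The Treg to naive ratio was 0.673 (0.489 to 0.933), an interval that also holds the table's 0.770. Slc4a4, a sodium-bicarbonate cotransporter, had 5 intronic regions over 268 kb of chromosome 5 and 74 reads. They held 7, 3 and 4, then 3, 1 and 12, then 4, 2 and 15, then 2, 2 and 8, then 5, 1 and 5 reads, so the first had more naive than Treg reads and the one with 15 Treg reads had 4 naive reads.

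Slc26a3, a chloride-bicarbonate exchanger of the gut, had 4 regions over 76.1 kb with 16, 9 and 21 reads. Its Treg mean value was 1.85 (1.15 to 2.83) beside 3.98 (2.28 to 6.47) in naive cells, and these intervals overlapped. Exon 4 of Slc4a1, band 3 of red blood cells, held 3, 3 and 7 reads, and exon 16 of Slc4a5 held 4, 3 and 9. Slc4a8, a sodium-driven chloride-bicarbonate exchanger, held 5, 0 and 10 reads at chr15:100600597-100600818. The 4 phosphate, sulfate and carboxylate carriers had 7 regions with mean values of 2.70, 3.12 and 2.77. Of these, the phosphate transporter Slc34a2 had the most reads, 36, as 1, 3 and 8, then 3, 3 and 5, then 2, 2 and 9 in exon 8.

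Carriers of transition metals and magnesium had 16 regions in 6 genes, 2 of them in promoters. Mean values were 3.18 (2.36 to 4.17), 3.36 (2.30 to 4.75) and 2.93 (2.45 to 3.47). Slc39a11, the zinc transporter ZIP11, had the most reads of any carrier, 102, in 7 regions over 334 kb of chromosome 11. Its reads summed to 21, 9 and 72. Its mean values were 2.99 (1.85 to 4.57), 2.16 (0.988 to 4.10) and 3.63 (2.84 to 4.57), with overlapping intervals.

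Read numbers varied among the regions of Slc39a11, with wide intervals. The one at chr11:113133379-113133736 held 5, 0 and 17 reads, and the interval of its Treg to Th1 ratio began at 0.865 and so included equality. At chr11:113237527-113237774 the reads were 1, 1 and 12, a Treg to naive ratio of 4.25 (0.628 to 182). In exon 3, at chr11:113422961-113423459, they were 2, 2 and 14, a ratio of 2.48 (0.569 to 22.5). At chr11:113312587-113312795, singled out after its values were seen, they were 6, 1 and 7, a ratio of 0.413 (0.119 to 1.49). These 3 intervals overlapped and each included equality, so a difference among the regions was not shown. Slc41a2 had 3 regions with 5, 1 and 2, then 5, 5 and 15, then 1, 4 and 5 reads, so that the middle one was high in all 3 libraries. Slc31a2, a copper carrier, had 3 with 2, 5 and 3, then 1, 2 and 6, then 1, 1 and 9 reads. The first of these, at chr4:61926649-61926911, gave a Treg value of 0.126 of the Th1 value (0.0195 to 0.647).

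**Figure D4:**
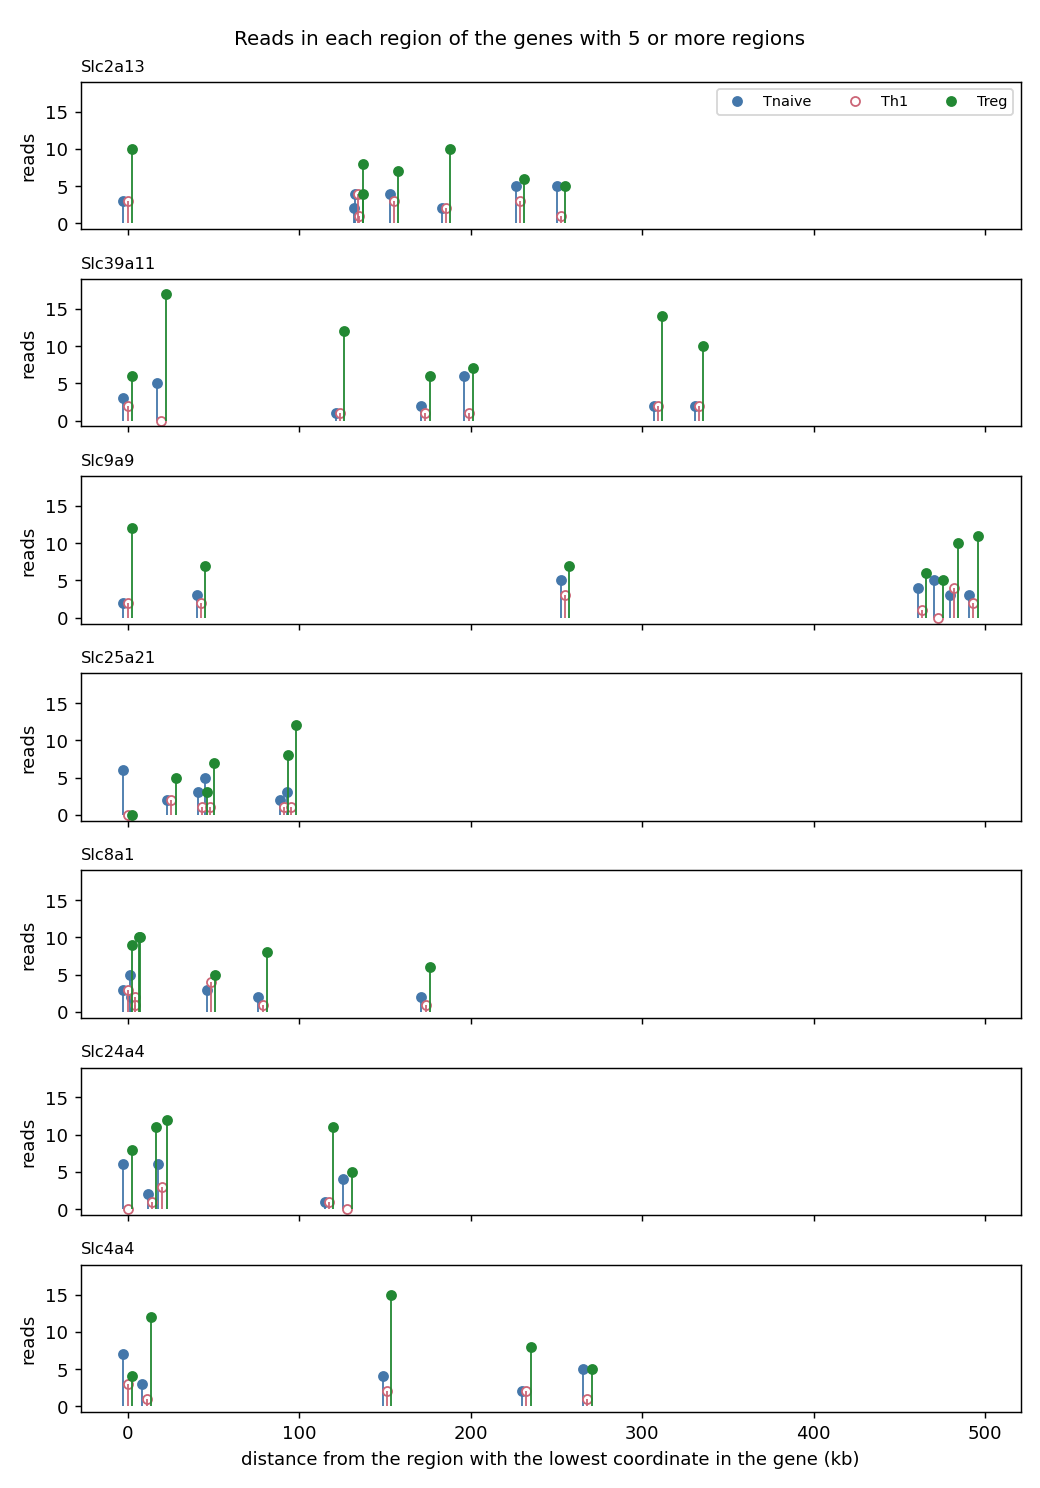
Reads (vertical axis) in naive, Th1 and Treg cells at each region of the solute carrier genes with the most regions, by distance from the first region of the gene (horizontal axis, kb). Each point is 1 region in 1 library, the libraries are shifted slightly sideways so that points do not hide each other, and Slc39a11 spans 6 to 17 Treg reads.

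The mitochondrial carriers of family Slc25 had 26 regions in 14 genes, the most regions of any family, with 88 naive, 49 Th1 and 151 Treg reads. Mean values were 3.37 (2.70 to 4.15) in naive, 3.17 (2.34 to 4.19) in Th1 and 2.05 (1.73 to 2.40) in Treg cells, where the table's Treg mean was 2.63. The Treg to naive ratio was 0.607 (0.464 to 0.799), beside 0.812 (0.741 to 0.891) for the other carriers and 0.770 for the table. These intervals overlap, the class was 1 of 15 looked at, and the difference between it and the other carriers was not tested. The Treg to Th1 ratio of the class was 0.646 (0.465 to 0.911), and the table's ratios lay inside both intervals of the class.

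Slc25a21, which exchanges oxodicarboxylates such as oxoadipate across the inner mitochondrial membrane, had 6 intronic regions over 95.8 kb of chromosome 12 and the most reads of the class, 62. One of them, at chr12:57861356-57861752, held 6, 0 and 0 reads, the only carrier region with no Treg read. The exact 95% interval of its Treg to naive ratio reached up to 0.301. The other 5 held 2, 2 and 5, then 3, 1 and 3, then 5, 1 and 7, then 2, 1 and 8, then 3, 1 and 12 reads. Without that region the ratio of the class was 0.652 (0.495 to 0.863), and without the gene it was 0.613 (0.450 to 0.840).

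Among the other mitochondrial carriers, Slc25a26, which imports the methyl donor S-adenosylmethionine, held 6, 3 and 8, then 4, 2 and 4, then 2, 2 and 3 reads. Its Treg mean value was 1.76 (0.986 to 2.91) beside 3.98 (2.06 to 6.96) in naive cells, and these intervals overlapped. Slc25a13, an aspartate-glutamate carrier, held 3, 3 and 7, then 1, 1 and 6, then 3, 1 and 13, then 3, 3 and 5 reads, and its mean values of 2.49, 3.36 and 2.73 were close. Slc25a24, which exchanges ATP-magnesium for phosphate, held 4, 3 and 1 reads at chr3:108967416-108967648. The Treg value there was 0.0885 of the naive value (0.00180 to 0.894), an interval that holds the table's 0.770. The second intron region of Slc25a24 held 4, 1 and 7. Slc25a36, a pyrimidine nucleotide carrier, held 6, 0 and 5 reads at chr9:96997751-96997943. Slc25a20, the carnitine-acylcarnitine carrier of fatty acid oxidation, held 2, 3 and 7.

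The organic ion and bile acid carriers, families Slc22, Slc47 and Slco, had 20 regions in 15 genes, of which 3 were in promoters. Mean values were 3.69 (2.89 to 4.63), 2.94 (2.05 to 4.09) and 2.89 (2.46 to 3.37). Slco2b1 had the most reads of the class, 32, as 3, 1 and 10 in an intron and 4, 4 and 10 in exon 6. Slc22a4, the ergothioneine transporter, held 5, 1 and 6, then 2, 0 and 5, then 6, 1 and 5 reads. Its Th1 mean value was 1.12 (0.136 to 4.05) on 2 reads, beside 4.32 (2.30 to 7.38) in naive cells on 13 reads. These intervals overlapped. Slco5a1 held 6, 0 and 5 reads at chr1:12932287-12932493.

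Vitamin, choline and heme carriers had 13 regions in 6 genes, and 5 of the 6 genes had more than 1 region. Mean values were 3.68 (2.71 to 4.88), 4.01 (2.72 to 5.69) and 2.39 (1.91 to 2.94), with a Treg to naive ratio of 0.649 (0.451 to 0.942) and a Treg to Th1 ratio of 0.595 (0.391 to 0.928). The table's ratios of 0.770 and 0.800 lay inside these intervals. Slc44a5, of the choline transporter-like family, had 4 regions over 247 kb of chromosome 3 and 50 reads, as 3, 0 and 10, then 3, 2 and 6, then 5, 3 and 7, then 3, 3 and 5 in exon 5. Slc44a1, the choline carrier of many cells, held 4, 1 and 10 and 3, 4 and 9 reads in 2 introns. Slc23a2, which takes up vitamin C, a cofactor of the enzymes that oxidise methylated cytosine, had both of its regions in exon 16, with 5, 1 and 6 and 4, 4 and 7 reads.

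Nucleotide sugar and sugar phosphate carriers had 9 regions in 6 genes with mean values of 3.54 (2.42 to 5.0), 2.24 (1.16 to 3.91) and 2.94 (2.31 to 3.68), and 2 of the 9 had no Th1 read. Slc35f3 had the most reads, 36, as 4, 2 and 4, then 5, 1 and 8, then 2, 0 and 10. The monocarboxylate family had 7 regions in 6 genes with mean values of 3.84, 4.32 and 2.67, and its Slc16a7, the pyruvate and lactate transporter MCT2, had the most reads, 27, as 4, 5 and 5 and 4, 1 and 8. The nucleoside carriers Slc29a3, which works in lysosomes, and Slc28a3 held 4, 0 and 12 and 4, 0 and 8 reads, so neither had a Th1 read. Slc27a2 was the fatty acid carrier with regions, and its second region, in an intron, held 3, 2 and 9 reads. Of the urea transporters, Slc14a1 held 1, 5 and 6 reads and Slc14a2 had 22 reads in 2 introns, as 2, 2 and 3 and 3, 1 and 11.

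**Figure D5:**
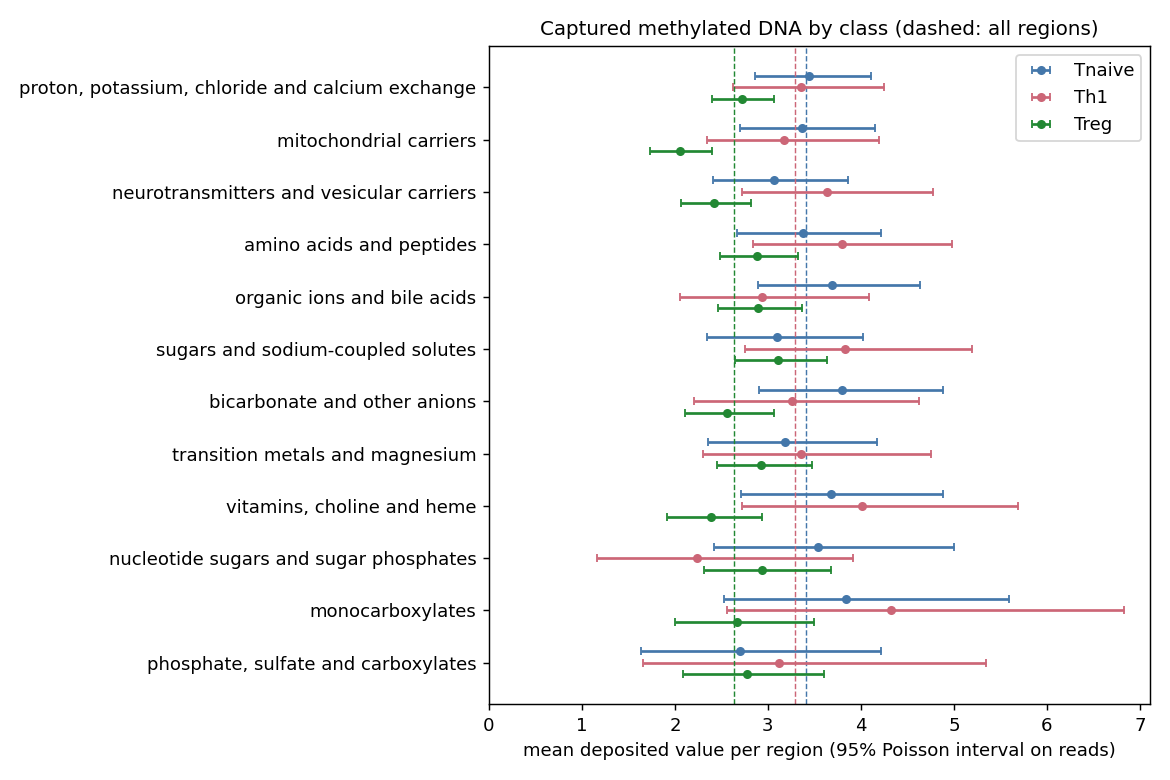
Mean deposited value per region (horizontal axis, scaled reads) of the substrate classes with at least 7 regions in naive, Th1 and Treg cells, with exact 95% Poisson intervals as bars and dashed lines at the mean of all 10000 regions. The Treg mean of the mitochondrial carriers, 2.05 (1.73 to 2.40), is the lowest Treg mean shown.

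Regions were spread over many carriers. The mean was 1.73 regions per gene (all regions 1.87), with 81 genes holding 1 region, 26 holding 2, 11 holding 3 and 10 holding 4 or more. Genes with 2 or more regions made up 36.7% of the carriers and 36.4% of the table's genes. The 21 genes with 3 or more held 88 of the 221 regions. By the rule of size, 6 genes held both a higher and a lower region in Th1 over naive cells (4.69% of the 128, against 9.63% of the table's genes), namely Slc24a3, Slc2a13, Slc41a2, Slc44a1, Slc6a6 and Slc9a9. In Treg over naive cells Slc39a11 did (0.781%, against 4.15%). In Treg over Th1 cells 6 did (4.69%, against 6.82%), namely Slc14a2, Slc25a13, Slc25a37, Slc35f3, Slc44a5 and Slc4a4. The shares of the table were higher in each pair, and the difference was not tested.

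Carrier regions higher in 1 library than in both others were counted beside those of the whole table. By the rule of size, 22 (9.95%; all regions 11.2%) were higher in naive than in both other libraries, 16 (7.24%; all regions 9.10%) in Th1 and 8 (3.62%; all regions 1.42%) in Treg cells. The 8 Treg regions lay in Slc24a4, Slc39a11, Slc43a3, Slc5a1, Slc6a12, Slc7a2, Slc7a4 and Slco3a1. Each of the 8 had a Treg to Th1 ratio whose interval included equality. With equal table totals these counts were 10 (4.52%; all regions 5.72%), 16 (7.24%; all regions 7.20%) and 14 (6.33%; all regions 3.66%). The Treg share stood above that of the table under both scalings, on 8 and 14 regions, and the difference was not tested. Some were singled out for that count after their values were seen. Slc7a2, a cationic amino acid transporter, held 2, 1 and 13 reads, and Slc7a4 held 2, 1 and 14 in exon 4. Slc5a1, the glucose cotransporter SGLT1, held 2, 1 and 13 in exon 9, and the highest of Slco3a1 held 2, 1 and 14. The Treg to naive ratio was 2.30 (0.521 to 21.0) at Slc7a2 and Slc5a1. It was 2.48 (0.569 to 22.5) at Slc7a4 and this Slco3a1 region, so these intervals too included equality.

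Of 50 carriers listed for a known role in T cell nutrition or ion handling, 13 (26%) had a region, with 21 regions in all. The share was 32.9% for all Slc and Slco names in RefSeq and 22.1% for all protein-coding names. The list's share lay between these, and no difference was tested. The list and the carriers were chosen with results of these data known. The mean values of the 21 were 3.32 (2.59 to 4.20) in naive, 4.48 (3.39 to 5.82) in Th1 and 2.90 (2.49 to 3.37) in Treg cells. The Treg to Th1 ratio was 0.648 (0.477 to 0.892; all carriers 0.775), and the Th1 to naive ratio was 1.35 (0.933 to 1.95), an interval that includes equality. The table's Treg to Th1 ratio of 0.800 lay inside the first interval. By the rule of size 7 of the 21 were higher and 4 lower in Th1 over naive cells (19.4% and 29% of the table), 1 higher and 3 lower in Treg over naive cells (8.33% and 22.2%) and 1 higher and 6 lower in Treg over Th1 cells (17.0% and 21.0%).

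The members of the list with a region not yet described were few. Exon 7 of Slc5a6, which takes up biotin and pantothenate, held 3, 1 and 7 reads, and Slc16a3, the lactate exporter MCT4 of glycolytic cells, held 1, 2 and 7 in an intron. Slc37a2, a sugar phosphate carrier, held 2, 3 and 8 in exon 6 and 3, 1 and 10 in an intron. The other list members with regions were Slc2a3, Slc6a6, Slc11a1, Slc23a2, Slc24a6, Slc25a20, Slc29a3, Slc38a1, Slc38a9 and Slc44a1. No region was listed for 37 of the 50, among them the glucose transporter Slc2a1, the amino acid transporters Slc7a5, Slc3a2 and Slc1a5 and the lactate transporter Slc16a1. As the table may be a selected set, a missing region is no measure of a gene's methylation.

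Of 389 protein-coding Slc and Slco names in RefSeq, 128 (32.9%) had a region, whereas 4842 of 21900 protein-coding names of all kinds (22.1%) did. Gene length, which sets how many places a region can fall, was not taken into account, and the difference was not tested. These shares, and the families below, describe a table whose regions were all at 0 in Th17 and may be a selected set. By family, 40 of 52 were represented. The 12 without a region were Slc3, 10, 18, 32, 33, 40, 46, 49, 50, 51, 52 and 66, which include the heavy chains of amino acid transporters (Slc3) and the iron exporter ferroportin (Slc40). Family Slc25 had a region in 14 of its 47 genes, Slc6 in 12 of 21, Slc9 in 7 of 14, Slc22 in 9 of 25, Slc4 in 6 of 11 and Slc39 in 2 of 14. Family Slc24 had a region under 4 labels, of which Slc24a6 is now Slc8b1 and so is not among the 5 RefSeq names of Slc24.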

How the data were processed

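Methylated DNA was captured from 4 samples with a methyl-CpG-binding kit and sequenced, per the labels' protocols. Build mm9, FastQC and Bowtie 0.12.7 are named in the submitters' processing notes. Not given in the sources used here were their roles, the calling of the 10000 regions, the scaling and the treatment of reads with several matches. Per region and library, the deposited table holds a signal. In naive, Th1 and Treg cells, 100% of these deposited signal values were whole multiples of 1 constant within a relative tolerance of 1e-06, and division recovered the reads. All Th17 values were 0.

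From these reads, ratios of values (pseudocount 0.5), a log2 threshold of 1, exact Poisson intervals and an exact binomial test with Benjamini-Hochberg adjustment at 0.05 were computed with Python 3.11.15, numpy 2.4.6, scipy 1.17.1 and pandas 2.3.3, and figures with matplotlib 3.10.9. The tests were checked on simulated data. Substrate classes follow the family number, so single members can carry another substrate. Gene names and promoter windows came from RefSeq (GRCm38.p6), and 6 of the 8 genes with promoter regions matched a window.

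Genes were named when they held 1 of the 10 highest mean values, 1 of the 5 largest ratios in each direction of a pair, 3 or more regions, a promoter region, 1 of the 10 exon regions of highest mean value, the most reads of a class, or a place on the T cell list. Slc1a6, Slc28a3, the genes listed with a count and the neighbouring genes were named after their values were seen. Some items that the rule names are left out of the text. Members and lists were chosen with earlier results of these data known. Alternatives were a threshold of 1.5, a pseudocount of 5, equal table totals, median-of-ratios factors, a minimum of 10 reads in the pair, the exact test, and merging of regions within 500 bp. The alternatives on Slc25a21 were chosen after seeing the data.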

Additional observations from a re-analysis of the deposited data

How the results depend on the processing

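No paired analysis was possible because each population had 1 library. Of 61 values under other settings, 25 stayed near the reported value, 33 moved and 3 reversed. Higher and lower carrier regions in Th1 over naive cells (31 and 53) became 13 and 23 at a log2 threshold of 1.5, 2 and 4 with a pseudocount of 5, and 2 and 0 among regions with at least 10 reads in the pair, where the median log2 ratio was 0.70 in place of 0.02. Equal table totals left 35 lower. For Treg over naive cells (14 and 49) the counts were 5 and 26 at 1.5, 1 and 1 with a pseudocount of 5, 34 and 26 with equal table totals and 26 and 26 with median-of-ratios scaling, and 19 lower regions had at least 10 reads. The median of -0.29 became -0.10 with a pseudocount of 5, 0.04 with equal table totals, 0.03 with median-of-ratios scaling and -0.04 with at least 10 reads. For Treg over Th1 cells (36 and 53) the counts were 20 and 25 at 1.5 and 2 and 4 with a pseudocount of 5, with 30 lower under median-of-ratios scaling and 13 lower with at least 10 reads. The median of -0.23 became 0.00 with equal table totals, 0.04 with median-of-ratios scaling and -0.07 with at least 10 reads. The adjusted exact binomial test called 0 carrier regions in either direction of each pair, where 2, 19 and 15 had an unadjusted p under 0.05 in the order Th1 over naive, Treg over naive and Treg over Th1. Why the medians reversed was not tested beyond the scaling itself. Removing labels that are no carriers removed 0 regions, so that setting is not among the 61. Merging regions within 500 bp left 218 regions, with no count of location, of genes with 2 or more regions or of unread Th1 regions moved by 1.5 times. Total reads per carrier region were 6 to 25 with a median of 13, so single regions have wide intervals.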

Other observations

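Several carrier genes with regions are neighbours in the genome. In 11 pairs, regions of different solute carrier genes lay within 200 kb, and most pairs joined members of 1 family. The closest were Slc6a13 and Slc6a12, GABA and betaine transporters on chromosome 6, with 18058 bp between their regions, Slc22a21 and Slc22a4, carnitine and ergothioneine transporters on chromosome 11, with 18966 bp, and Slc17a1 and Slc17a4 on chromosome 13 with 24543 bp. In the order naive, Th1 and Treg, the Slc6a13 region had 3, 3 and 5 reads and the Slc6a12 region 1, 1 and 12. Chromosomes 11 and 6 had 22 carrier regions each, in 12 genes each, and chromosome 12 had 19 in 6 genes.

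The length of a region went with its reads in opposite directions in naive and Treg cells. The 46 carrier regions under 200 bp had mean reads of 3.72 in naive, 1.52 in Th1 and 6.37 in Treg cells, and the 57 of 300 bp or more had 3.26, 2.54 and 9.25. Short regions of all genes had means of 3.92, 1.49 and 6.23, and long ones 3.22, 2.40 and 8.67. Slc43a3, with 0, 1 and 18 reads, is of middle length, and the Slc25a21 region with 6, 0 and 0 reads is 397 bp long. The part of length in any ratio was not tested.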
